A study of Mus musculus with 12 samples.

Results

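The 10 genes described here encode matricellular proteins and close partners of them: Spp1 (osteopontin), Tnc (tenascin-C), Thbs1 and Thbs2 (thrombospondins), Ctgf and Cyr61 (the CCN proteins that RefSeq now lists as Ccn2 and Ccn1), Postn (periostin), Sparc, Fn1 (fibronectin) and Tnfaip6 (TSG-6). Members were found as the 14 probes on the array that are not controls and carry 1 of these gene names, and the 10 genes are among 34796 gene names on the array. All 10 had at least 1 probe bright enough to test, as had 13 of the 14 probes. RNA from the aorta above the right renal artery of adult male C57BL/6J mice was measured on 12 arrays, 1 for each mouse, in 4 groups of 3. DMSO mice received dimethylsulfoxide, the vehicle. Rapamycin mice received rapamycin, an inhibitor of the kinase mTOR, at 2 mg/kg/day in that vehicle. BA+DMSO mice received vehicle and were challenged with beta-aminopropionitrile (BAPN), a blocker of collagen crosslinking, at 150 mg/kg/day and angiotensin II (AngII) at 1 µg/kg/min, which together are used as a model of aortic dissection. BA+rapamycin mice received the challenge and rapamycin, and every sample was taken at day 3. The titles of the DMSO samples call them Pre, while the record of the series describes vehicle alone and the same day for all groups.

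Matricellular proteins are secreted into the extracellular matrix but do not build its fibres. They bind integrins and other receptors at the cell surface, hold growth factors such as TGF-beta, and change how firmly cells attach to collagen and fibronectin. Some, such as osteopontin and tenascin-C, are known to be scarce in a resting adult artery and to be made again after injury by smooth muscle cells, fibroblasts and macrophages, while SPARC and fibronectin are made at rest too.

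Values are log2 intensities relative to the 75th percentile of the array, so that 0 is that percentile. Differences are between group means on this log2 scale with their standard error (SE), n = 3 arrays a group. The members were chosen by their known biology together with measured differences across the challenge, above all those of Spp1 and Tnc, so the members' values across the challenge are given as a description with no p-value. Where the calls of the fit are counted for them, the count stands beside the share of all probes called and is no evidence about the list. Comparisons of rapamycin with vehicle are given with the limma test, two-sided, with Benjamini-Hochberg adjustment over 27801 tested probes, and calls needed an adjusted p below 0.05. Because the tissue was measured whole, more cells of one type and more RNA per cell cannot be told apart. Smooth muscle markers were well above background on every array, at 12 of 12, and the median of the list was 6.44 to 6.57 in DMSO and 6.25 to 6.38 in rapamycin, compared with 3.95 to 5.47 for BA+DMSO and 4.78 to 4.98 for BA+rapamycin. Their summed level, in multiples of the 75th percentile, was 3080 to 3290 in DMSO, 2790 to 3240 in rapamycin, 2510 to 4970 for BA+DMSO and 3570 to 4610 for BA+rapamycin. In the challenge with vehicle 3 of these 12 fell by the limma test (Ldb3, Lmod1 and Synpo2) and 0 rose, and all 5 erythroid markers tested rose. Of all tested probes 20.5% were called there. In the challenge under rapamycin, where 41.7% were called, 5 of the 12 smooth muscle markers fell and 1 rose, and 3 of the 5 erythroid markers rose. The part of either in the results that follow was not tested.

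The vehicle arrays under challenge were uneven. The median SD over tested probes was 0.502 in BA+DMSO, compared with 0.155 in DMSO, 0.171 in rapamycin and 0.224 in BA+rapamycin. BA+DMSO replicate 2 was the lowest of its group at 8 of the 10 members and at 42% of all tested probes, and the highest at 1 member, Tnc, and at 40.5% of probes. The 75th percentile was an intensity of 221 to 280 in DMSO, 257 to 337 in rapamycin, 78.1 to 246 for BA+DMSO and 74.6 to 109 for BA+rapamycin. Slide 1 held the 3 DMSO arrays and rapamycin replicate 1, and slide 2 held the other arrays, so that slide and challenge cannot be told apart in the vehicle groups.

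**Figure D1:**
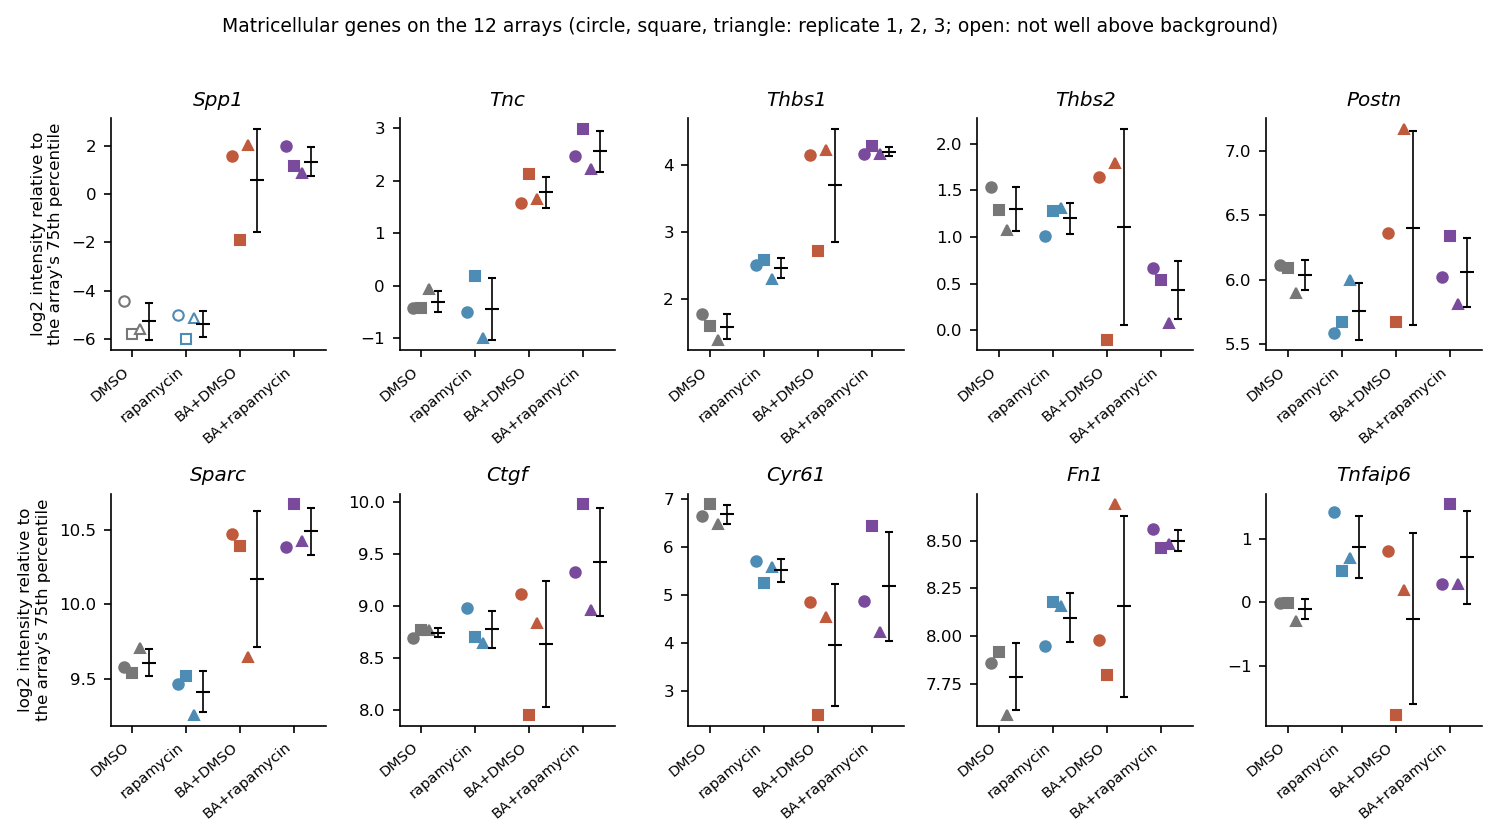
Log2 intensity relative to the array's 75th percentile (y axes, 1 scale per gene) for the 10 genes in the 4 groups (x axes); symbols are the 3 arrays of a group, open symbols are not well above background, and black bars are mean ± SD. Spp1, Tnc and Thbs1 sit higher on all 6 challenged arrays than on the 6 unchallenged ones, and BA+DMSO replicate 2 (squares) lies below the other 2 arrays of its group at 8 genes.

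Spp1 encodes osteopontin, a phosphoprotein that binds integrins and CD44 and is made in quantity by activated macrophages and by smooth muscle cells that have left the contractile state. It was read by 1 probe at chr5:104868502-104868561 of the build mm9, plus strand, and is shown because its signal went from below detection to bright.
Spp1 probe: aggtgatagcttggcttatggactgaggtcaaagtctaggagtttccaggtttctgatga

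Spp1 was not well above background on any of the 6 unchallenged arrays, where its values were -4.41, -5.81 and -5.60 in DMSO and -4.99, -6.01 and -5.15 in rapamycin. On the challenged arrays it was well above background throughout, at 1.57, -1.88 and 2.05 in BA+DMSO and at 2.01, 1.18 and 0.88 in BA+rapamycin. Groups with and without the challenge did not overlap, and 1 array of BA+DMSO, replicate 2, stood far below the other 5 challenged arrays. Against the detection floor, Spp1 was at least 24.4-fold higher in BA+DMSO than in DMSO and at least 43.4-fold higher in BA+rapamycin than in rapamycin. These bounds depend on the array and on the background correction: the first was 57.3-fold without BA+DMSO replicate 2, and with normexp correction, whose offset compresses dim signals, they were 6.31-fold and 8.08-fold. Rapamycin under challenge did not pass the test, with a difference of 0.78 (SE 0.848, limma adjusted p = 0.566), and the 95% interval of that difference ran from -1.09 to 2.64. Without BA+DMSO replicate 2, the difference was -0.45 (limma adjusted p = 0.468).

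Macrophage markers were also higher under challenge. Of 12 macrophage markers on the array, 11 rose in BA+DMSO against DMSO by the limma test, where 9.65% of all probes rose, with a median difference of 2.36. In the challenge under rapamycin 8 of the 12 rose, where 18.9% of all probes did, with a median of 1.38. All 12 were well above background on every array. Their summed level, in multiples of the 75th percentile, was 116 to 146 in DMSO and 134 to 156 in rapamycin, compared with 238 to 510 for BA+DMSO and 404 to 528 for BA+rapamycin. Itgam, the 1 marker not called, made up 38.7% to 83.6% of the sum in BA+DMSO. Without Itgam the sums were 26.7 to 51.6 in DMSO and 44.3 to 60 in rapamycin, compared with 83.7 to 209 for BA+DMSO and 116 to 121 for BA+rapamycin. On BA+DMSO replicate 2, where Spp1 was lowest, the sum with Itgam was the highest of the group, 510, but the median of the 12 markers was the lowest, 1.96 compared with 3.62 and 3.26. The part of macrophage number in the Spp1 level was not tested.

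Tenascin-C is a large hexameric glycoprotein of embryonic and wounded tissue that weakens the hold of cells on fibronectin. Tnc was read by 2 probes, both on the minus strand of mm9. The first covers chr4:63674248-63675011, a stretch of 764 bases for a probe of 60. The second lies downstream in the direction of transcription at chr4:63643728-63643787. The probes are shown because they gave different sizes of response.
Tnc first probe: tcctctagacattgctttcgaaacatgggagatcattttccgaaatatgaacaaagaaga
Tnc second probe: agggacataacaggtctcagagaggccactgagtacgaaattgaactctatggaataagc

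At the first probe, Tnc was -0.42, -0.42 and -0.07 in DMSO and -0.50, 0.18 and -0.99 in rapamycin. Under challenge it was 1.57, 2.12 and 1.65 in BA+DMSO and 2.46, 2.99 and 2.23 in BA+rapamycin. All 6 challenged arrays were above all 6 unchallenged ones, and the 3 BA+rapamycin arrays were above the 3 BA+DMSO arrays. Tnc was 4.23-fold higher in BA+DMSO than in DMSO (2.08, SE 0.304) and 7.98-fold higher in BA+rapamycin than in rapamycin (3.00, SE 0.304).

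The difference of Tnc between BA+rapamycin and BA+DMSO, 0.78 (SE 0.304), missed the threshold (limma adjusted p = 0.21). Without BA+DMSO replicate 2, the array at which Tnc was highest in its group, the difference was 0.95 and passed (limma adjusted p = 0.0443). Rapamycin alone gave -0.14 (SE 0.304, limma adjusted p = 1), and the DMSO and rapamycin arrays overlapped. Macrophage markers were higher on the challenged arrays, as given above, and 4 of 12 fibroblast markers rose with the challenge (Cd248, Col1a1, Col1a2 and Col3a1). Their part in the Tnc level was not tested.

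The second Tnc probe gave a smaller difference across the challenge, 1.07 (SE 0.244) with vehicle and 1.90 (SE 0.244) with rapamycin. The first probe minus the second, whose size has no meaning on a single array, was 0.58, 0.00 and 0.55 in DMSO and 0.26, 0.82 and 0.31 in rapamycin. Under challenge it was 1.33, 1.80 and 1.04 in BA+DMSO and 1.48, 1.65 and 1.56 in BA+rapamycin. The gap between the probes averaged 0.42 ± 0.289 (SD, n = 6) on unchallenged and 1.48 ± 0.266 (SD, n = 6) on challenged arrays, with no overlap. Tenascin-C is known for variants made by splicing of repeats in the middle of the protein. Which variants each probe can bind was not tested.

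Thrombospondin-1 is a trimeric glycoprotein that activates latent TGF-beta, blocks nitric oxide signals through CD36 and CD47 and is released by platelets as well as made by vascular cells. Its probe lies at chr2:117952585-117952644 of mm9, plus strand. Thbs1 was 1.77, 1.59 and 1.39 in DMSO and 2.50, 2.58 and 2.30 in rapamycin. It was 4.15, 2.72 and 4.22 in BA+DMSO and 4.16, 4.28 and 4.16 in BA+rapamycin. Every challenged array was above every unchallenged one, and the rapamycin arrays lay between the DMSO arrays and the lowest challenged array.

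Thbs1 was 4.32-fold higher in BA+DMSO than in DMSO (2.11, SE 0.333) and 3.33-fold higher in BA+rapamycin than in rapamycin (1.74, SE 0.333). Rapamycin alone gave a difference of 0.88 (SE 0.333), with all 3 rapamycin arrays above all 3 DMSO arrays. It missed the threshold (limma adjusted p = 1). Among the 4 arrays whose titles share a string, 2 DMSO and 2 rapamycin, the difference was 0.95, and on slide 1 it was 0.92. Of these 4, the DMSO arrays lay on slide 1 and the rapamycin arrays on slide 2, and the slide 1 value rests on 1 rapamycin array. Under challenge, the difference between rapamycin and vehicle was 0.50 (SE 0.333, limma adjusted p = 0.367). It was 0.01 without BA+DMSO replicate 2. Platelet markers summed to 6.58 to 16.5 in DMSO, 9.86 to 12 in rapamycin, 19.4 to 41.6 for BA+DMSO and 11.3 to 14.9 for BA+rapamycin. Pf4 made up most of these sums, and without it they were 0.57 to 3.66, 0.499 to 0.834, 1.81 to 4.19 and 1.53 to 2.99 in the same order. Of 6 platelet markers tested, 1 rose in the challenge with vehicle (Pf4) and 3 were called higher in the challenge under rapamycin. Of these, Treml1 was well above background on all arrays, while Gp9 was so on 0 of 3 rapamycin and 1 of 3 BA+rapamycin arrays and Itga2b on 1 of 3 in both, so those calls compare levels near the background. The part of platelets in the Thbs1 level was not tested.

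Thrombospondin-2 is the close relative that binds matrix metalloproteinase-2 and is needed for regular collagen fibres. Its probe spans chr17:14804526-14805789 of mm9, minus strand. Thbs2 was 1.54, 1.29 and 1.07 in DMSO, 1.01, 1.28 and 1.31 in rapamycin, 1.64, -0.10 and 1.79 in BA+DMSO and 0.67, 0.54 and 0.08 in BA+rapamycin. The 3 BA+rapamycin arrays were below every unchallenged array and below 2 of the 3 BA+DMSO arrays. Thbs2 differed by -0.19 (SE 0.414) across the challenge with vehicle and by -0.77 (SE 0.414) with rapamycin. Without BA+DMSO replicate 2 the first of these was 0.42 (SE 0.209), so its sign rested on that array.

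BA+rapamycin minus BA+DMSO was -0.68 for Thbs2 (SE 0.414, limma adjusted p = 0.337). Without BA+DMSO replicate 2 it was -1.29 (SE 0.209, limma adjusted p = 0.00352), and the difference of the rapamycin response between challenged and unchallenged aortas was then -1.19 (limma adjusted p = 0.039), compared with -0.58 (limma adjusted p = 0.751) with all arrays. For Thbs1, the same interaction was -0.38 (limma adjusted p = 0.793) with all arrays and -0.86 (limma adjusted p = 0.0382) without that array. BA+DMSO then held 2 arrays, and 39.5% of all tested probes were called for rapamycin under challenge and 10.4% for the interaction. The interaction also contains the differences across the challenge, which were known when the members were chosen, so its p-values are no independent support.

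Ctgf and Cyr61 encode CCN proteins, which bind integrins and heparan sulphate and are textbook targets of YAP and TEAD, the transcription pair that reads mechanical load, and of TGF-beta and AngII. The Cyr61 probe lies at chr3:145310187-145310246 of mm9, minus strand. Cyr61 was 6.65, 6.89 and 6.48 in DMSO and 5.70, 5.24 and 5.58 in rapamycin. Under challenge it was 4.84, 2.49 and 4.53 in BA+DMSO and 4.87, 6.44 and 4.22 in BA+rapamycin. DMSO arrays were above all arrays of the 3 other groups, and the widest spread was between the 6 challenged arrays.

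Cyr61 was 6.60-fold lower in BA+DMSO than in DMSO (-2.72, SE 0.619). The difference was -1.99 without BA+DMSO replicate 2. With rapamycin in both groups, the challenge gave -0.33 (SE 0.619), and the groups overlapped. Rapamycin alone gave -1.17 (SE 0.619, limma adjusted p = 1) with no overlap between groups, and -1.28 among the 4 arrays whose titles share a string. Of these 4, the DMSO arrays lay on slide 1 and the rapamycin arrays on slide 2. On slide 1, with 1 rapamycin array, the difference was -0.97. Rapamycin under challenge gave 1.22 (SE 0.619, limma adjusted p = 0.279), but 0.49 without BA+DMSO replicate 2 and 0.03 between the 2 arrays whose titles share another string. The interaction of 2.39 (SE 0.875) missed the threshold (limma adjusted p = 0.737).

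Ctgf, read by a probe at chr10:24318281-24318340 of mm9, plus strand, moved less than Cyr61. It was 8.69, 8.77 and 8.77 in DMSO, 8.98, 8.70 and 8.64 in rapamycin, 9.11, 7.95 and 8.84 in BA+DMSO and 9.33, 9.98 and 8.96 in BA+rapamycin. The groups overlapped in the challenge with vehicle, where the difference was -0.11 (SE 0.311). Rapamycin under challenge gave 0.79 (SE 0.311, limma adjusted p = 0.211), and 0.45 without BA+DMSO replicate 2.

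TSG-6, the product of Tnfaip6, is an inflammation-induced protein that moves heavy chains of inter-alpha-inhibitor onto hyaluronan. Tnfaip6 was read by 3 probes, of which 1 was too dim to test, and the brightest lies at chr2:51912073-51912132 of mm9, plus strand. It was -0.02, -0.01 and -0.29 in DMSO, 1.41, 0.49 and 0.69 in rapamycin, 0.81, -1.77 and 0.19 in BA+DMSO and 0.29, 1.54 and 0.28 in BA+rapamycin. The rapamycin arrays were above all DMSO arrays, and BA+DMSO was the most spread and overlapped every other group. Rapamycin alone gave 0.97 (SE 0.575, limma adjusted p = 1) and rapamycin under challenge 0.96 (SE 0.575, limma adjusted p = 0.334), compared with 0.20 without BA+DMSO replicate 2 and -0.52 between the 2 challenged arrays whose titles share a string. The second tested probe gave 0.94 and 0.91 for the same comparisons.

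Ctgf, Cyr61 and Tnfaip6 had the same order of arrays within each challenged group. In BA+DMSO all 3 genes were highest on replicate 1 and lowest on replicate 2, and in BA+rapamycin all 3 were highest on replicate 2 and lowest on replicate 3. The order was not particular to them: Tnc and Postn had the same one in BA+rapamycin, where replicate 2 was the highest array at 7 of the 10 members (36.3% of all tested probes) and replicate 3 the lowest at 7 (30.7%), with Thbs1 tied between replicates 1 and 3 and left out of the latter count. Tnc differed in BA+DMSO, where replicate 2 was its highest array. These values come from the same RNA and share its quality and its scaling, and their part in the common order was not tested.

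**Figure D2:**
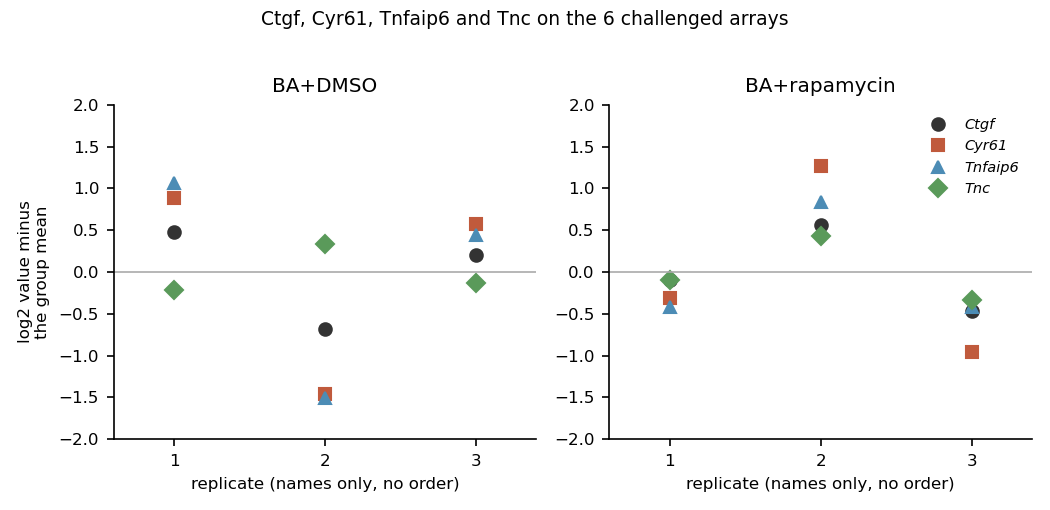
Log2 value minus the group mean (y axis) of Ctgf, Cyr61, Tnfaip6 and Tnc on the 3 arrays of BA+DMSO (left) and of BA+rapamycin (right); x positions only name the arrays. Ctgf, Cyr61 and Tnfaip6 fall together on BA+DMSO replicate 2, where Tnc is above its mean.

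Promoter sequences from RefSeq on GRCm38.p6 were at hand for 7 of the 10 genes, and the 250 bases before the start of transcription are shown for Cyr61 and Tnfaip6, the genes of that trio in the table. Letters of 6 motifs were searched on both strands: AP-1 as TGANTCA, CRE as TGACGTCA, TEAD as GGAATG, STAT as TTCNNNGAA, SP1 as GGGCGG, and the CArG box. The Cyr61 window is chr3:145649986-145650235 and the Tnfaip6 window chr2:52037863-52038112, both written in the direction of transcription with matches in capitals.
Cyr61 promoter: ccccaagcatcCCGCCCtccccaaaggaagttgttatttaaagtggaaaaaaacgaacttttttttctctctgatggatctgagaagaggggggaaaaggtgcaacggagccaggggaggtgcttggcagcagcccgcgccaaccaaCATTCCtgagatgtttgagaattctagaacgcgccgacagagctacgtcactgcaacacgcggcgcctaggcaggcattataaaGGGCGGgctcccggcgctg
Tnfaip6 promoter: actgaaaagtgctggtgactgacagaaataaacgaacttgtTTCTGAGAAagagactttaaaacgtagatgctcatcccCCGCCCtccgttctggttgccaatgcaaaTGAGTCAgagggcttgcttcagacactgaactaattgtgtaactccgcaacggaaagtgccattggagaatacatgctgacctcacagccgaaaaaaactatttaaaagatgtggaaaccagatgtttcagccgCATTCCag

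Both windows held the TEAD letters, in the reverse direction, at a distance of 103 bases from the start in Cyr61 and 8 bases in Tnfaip6, and 12.6% of 32817 promoter windows of the same length held them. Both also held the SP1 letters, present in 32.7% of windows. Tnfaip6 alone held the AP-1 letters, 142 bases before the start, and the STAT letters, 209 bases before it, found in 6.75% and 7.01% of windows. None of these matches overlapped another. Tnc held the SP1 letters, and the windows of Spp1, Thbs2, Postn and Sparc held none of the 6 motifs. The CRE letters and the CArG box, present in 1.55% and 1.47% of windows, were in no member's window.

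Sparc, Postn and Fn1 encode proteins of the collagen-rich matrix. SPARC is a collagen chaperone and counter-adhesive protein, periostin helps collagen crosslinking, and fibronectin is the scaffold on which other matrix is laid down. Their RNAs were bright on all arrays. Sparc, at chr11:55208939-55208998 of mm9, minus strand, ranked between 7 and 22 in brightness among 55675 probes. It was 9.58, 9.54 and 9.71 in DMSO, 9.47, 9.52 and 9.26 in rapamycin, 10.47, 10.39 and 9.65 in BA+DMSO and 10.38, 10.67 and 10.42 in BA+rapamycin. The BA+rapamycin arrays were above all unchallenged arrays, while BA+DMSO replicate 3 lay within the range of DMSO.

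Sparc differed by 0.56 (SE 0.218) across the challenge with vehicle and by 1.07 (SE 0.218) with rapamycin. These differences depended on the scaling: under quantile normalization both were -0.03. Quantile normalization gives a probe near the top rank almost the same value on each array. The second Sparc probe, ranked between 804 and 1644, gave 0.58 (SE 0.165) and 0.82 (SE 0.165). Rapamycin under challenge gave 0.32 at the first probe (SE 0.218, limma adjusted p = 0.379) and 0.07 at the second (SE 0.165, limma adjusted p = 0.796). Of 12 fibroblast markers, 4 rose in the challenge, 3 of them collagen genes. The 8 that did not pass had differences of 1.13 (Lum), 1.00 (Pi16), 0.58 (Dpt), 0.34 (Fbln1), 0.12 (Mfap5), 0.10 (Pdgfra), 0.07 (Dcn) and -0.48 (Clec3b), and of these Pi16 alone had groups that did not overlap. The summed level of the list was 1430 to 1790 in DMSO, 1580 to 1810 in rapamycin, 1920 to 3160 for BA+DMSO and 2930 to 3330 for BA+rapamycin, and their part in the Sparc level was not tested. The fibroblast list holds Col1a1, the gene named below as nearest to Sparc.

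Postn, with a probe at chr3:54194840-54194899 of mm9, plus strand, ranged from 5.90 to 6.11 in DMSO, from 5.59 to 6.00 in rapamycin, from 5.67 to 7.17 in BA+DMSO and, in BA+rapamycin, from 5.81 to 6.34. The groups overlapped in every comparison, and the differences across the challenge were 0.37 with vehicle and 0.30 with rapamycin (SE 0.316 for both). Rapamycin under challenge gave -0.34 (SE 0.316, limma adjusted p = 0.497) and, without BA+DMSO replicate 2, -0.71 (limma adjusted p = 0.0483).

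Fn1, with a probe at chr1:71632116-71632175 of mm9, minus strand, ranged from 7.59 to 7.92 in DMSO, from 7.95 to 8.18 in rapamycin, from 7.80 to 8.69 in BA+DMSO and, in BA+rapamycin, from 8.46 to 8.56. The BA+rapamycin arrays were above both unchallenged groups and overlapped BA+DMSO. The differences were 0.37 for the challenge with vehicle and 0.41 with rapamycin (SE 0.222 for both), with 0.31 for rapamycin alone (SE 0.222, limma adjusted p = 1). Rapamycin under challenge gave 0.34 (SE 0.222, limma adjusted p = 0.358).

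Across the members, 4 of 10 were called in the challenge with vehicle (Spp1, Tnc and Thbs1 higher, Cyr61 lower), where 20.5% of all tested probes were called, and 4 of 10 in the challenge under rapamycin (Spp1, Tnc, Thbs1 and Sparc, all higher), where 41.7% were, with 18.9% of all probes called higher. Groups did not overlap at 4 members in the first (34.6% of probes) and at 6 in the other (65.9%). Nothing is read from these counts, since the list was chosen with that response in view, and the call of Cyr61 was lost without DMSO replicate 2. The title string was also fitted as a fixed block, chosen after seeing the data, which leaves 2 residual degrees of freedom. The titles of BA+DMSO replicates 2 and 3 hold no such string, so each was fitted as a level of its own. Whether either belongs with another array is not known, and replicate 1 alone stands for that group in this fit. BA+rapamycin replicate 3 is the only challenged array that shares a string with an unchallenged one. For these reasons only differences are given: those of Tnc were 1.75 in the challenge with vehicle and 2.81 under rapamycin. In the main fit the median difference of the 10 members was 0.37 in the challenge with vehicle and 0.53 under rapamycin. Over all tested probes it was -0.04 and -0.08.

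**Figure D3:**
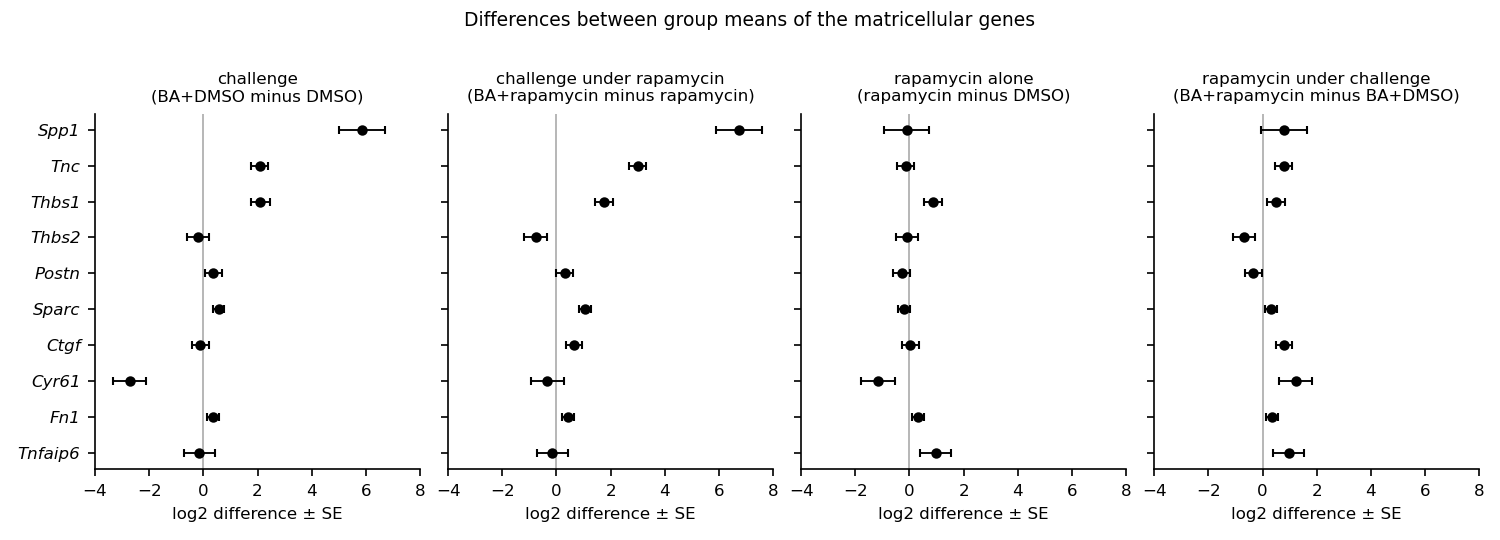
Log2 difference between group means ± SE (x axis) for the 10 genes (rows) in the challenge with vehicle, the challenge with rapamycin, rapamycin alone and rapamycin under challenge (panels). Spp1, Tnc and Thbs1 lie right of 0 in both challenge panels, and Cyr61 lies left of 0 in the first; for Spp1 the unchallenged groups were not well above background, so its fitted position there is no measure of fold.

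The question of the study's design was what rapamycin does to the response of the aorta. Of the 10 members, limma called 0 for rapamycin under challenge, where 0.281% of tested probes were called, 0 for rapamycin alone, where 0.0036% were, and 0 for the interaction, where 0% were. At an unadjusted p under 0.05 these counts were 2 members (20.1% of probes), 1 member (4.27%) and 1 member (6.12%). Members with groups that did not overlap numbered 1 for rapamycin under challenge, where 14.5% of probes had such groups, and 5 for rapamycin alone, where 21.5% had. For rapamycin under challenge 8 of the 10 differences were above 0, with a median of 0.64 beside -0.01 over all tested probes, and without BA+DMSO replicate 2 this was 7 of 10 with a median of 0.18.

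That result rested on BA+DMSO replicate 2. Without it, 3 members were called for rapamycin under challenge (Tnc higher, Thbs2 and Postn lower), as were 39.5% of all tested probes, and 2 for the interaction (Thbs1 and Thbs2), as were 10.4% of probes. The remaining BA+DMSO group then held 2 arrays, and Spp1 changed sign.

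**Figure D4:**
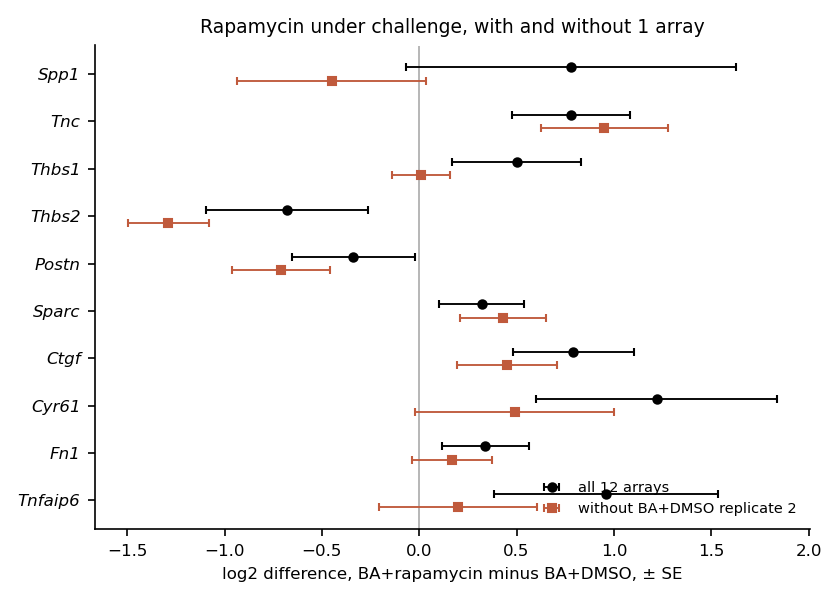
Log2 difference BA+rapamycin minus BA+DMSO ± SE (x axis) for the 10 genes (rows), with all 12 arrays (black circles) and without BA+DMSO replicate 2 (red squares). Without that array Thbs2 moves from -0.68 to -1.29 and Postn from -0.34 to -0.71, Spp1 moves across 0, and Tnc stays above 0.

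Other genes of the same families and further matricellular genes formed a list of 30, of which 20 were tested. This list and the 3 lists below were chosen with earlier results of these data known. Their counts and p-values in the challenge are therefore a description and no independent support. In the challenge with vehicle 6 rose and 2 fell by the limma test, beside 9.65% and 10.8% of all probes, with a median of 0.33. Wisp1, a CCN protein linked to Wnt signals, rose by 2.46 (SE 0.397, limma adjusted p = 0.00245), from 0.33 to 0.82 in DMSO to 1.91 to 3.92 in BA+DMSO. Fbln2, which encodes the elastic-fibre and basement-membrane protein fibulin-2, rose by 1.90 (SE 0.264, limma adjusted p = 0.00121). Sparcl1, the nearest relative of Sparc, fell by 2.26 (SE 0.557, limma adjusted p = 0.0176), from 6.68 to 7.16 in DMSO to 3.38 to 5.90 in BA+DMSO, so its call was opposite in direction to the differences of Sparc above. The other calls were Spon2, Lgals3, Wisp2 and Lgals1 among those that rose and Tnxb, the tenascin of elastic and loose connective tissue, at -1.39 (SE 0.397, limma adjusted p = 0.0318). With the slide as a fixed block 0 genes of this list or of the 3 lists below were called in the challenge (0.054% of all probes), and with array weights 1 of the 4 lists together (0.403%). The slide block left differences of 2.12 for Wisp1 and 2.22 for Fbln2 with wider errors (SE 0.743 and 0.491). In the challenge under rapamycin, where rapamycin arrays lie on both slides, it called 5 relatives higher and 6 lower. With the title string as a random block, 6 relatives rose and 2 fell in the challenge, 3 receptors rose and 3 fell, 3 genes of the TGF-beta and YAP list rose and 0 fell, and in the hyaluronan list 2 were called higher and 3 lower. With the string as a fixed block, which leaves 1 BA+DMSO array, the differences were 3.23 for Wisp1, 2.38 for Fbln2 and 1.08 for Cd44. With only the 2 groups compared, 3 relatives and 2 receptors rose, 1 gene of the hyaluronan list was called higher and 1 lower, and no other was called. Both calls toward lower values were lost without DMSO replicate 1, without DMSO replicate 2 and without BA+DMSO replicate 1, when 0 genes of the list fell.

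Receptors of these proteins formed a list of 20, of which 18 were tested, and 4 rose and 3 fell in the challenge, beside 9.65% and 10.8% of all probes, with a median of 0.20. Itgax, the alpha chain of a leukocyte integrin, rose by 2.01 (SE 0.296, limma adjusted p = 0.00159). Cd36, the thrombospondin receptor and lipid scavenger of macrophages and capillaries, rose by 1.52 (SE 0.408, limma adjusted p = 0.0248). That call was kept in 17 of 26 alternatives, and the difference ran from -0.27 to 1.89 over them, so its sign was not kept in all. Cd44, the receptor of osteopontin and hyaluronan, rose by 1.33 (SE 0.222, limma adjusted p = 0.00304) and Itgb1, the common beta chain of integrins, by 0.67 (SE 0.161, limma adjusted p = 0.0158). Itga8, the integrin chain of contractile smooth muscle, fell by 1.57 (SE 0.318, limma adjusted p = 0.00755), and Cacna2d1 and Ddr2, a collagen receptor, fell too, beside the 3 of 12 smooth muscle markers that fell. Without DMSO replicate 2 or without DMSO replicate 3, 2 of the list rose and 3 fell, and without BA+DMSO replicate 3, 6 rose and 4 fell. Itgax and Cd36 are made by macrophages, whose markers rose as given above. Of 10 endothelial markers, 3 rose by the limma test (Emcn by 1.4, Kdr by 1.28 and Tie1 by 0.93) and 7 were not called. The part of either cell type was not tested.

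**Figure D5:**
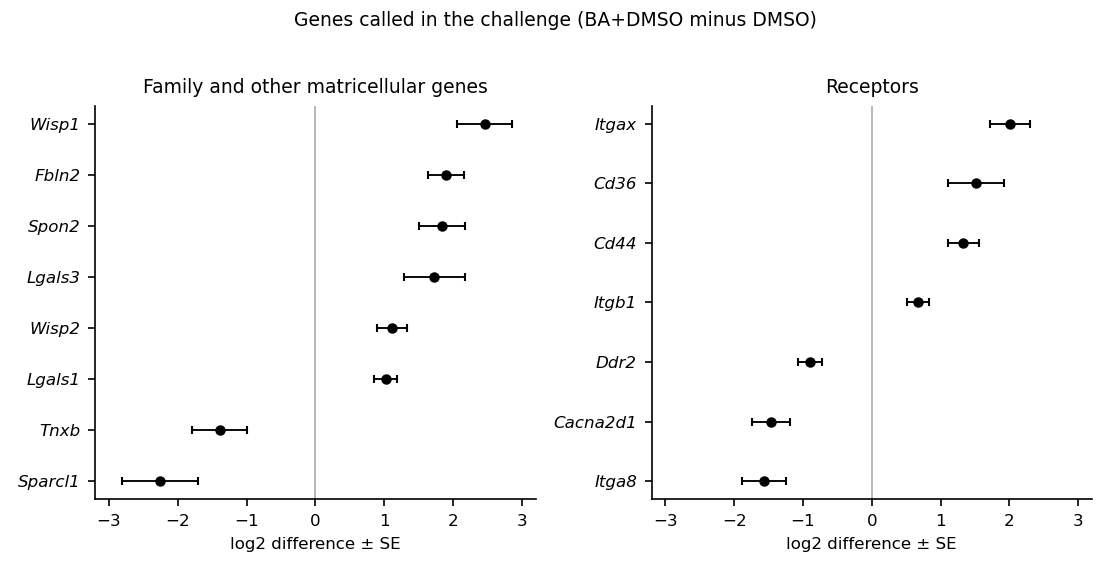
Log2 difference BA+DMSO minus DMSO ± SE (x axis) for the genes called by limma in the list of related matricellular genes (left) and of receptors (right). Wisp1 is farthest to the right and Sparcl1 farthest to the left among the relatives, and Itgax and Itga8 among the receptors.

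Of 24 regulators and other targets of TGF-beta and of YAP and TEAD, 23 were tested, and 2 rose and 1 fell in the challenge, with a median of -0.20. That is 3 of 23 called where 20.5% of all probes were. Amotl1, a target and partner of YAP, rose by 0.86 (SE 0.214, limma adjusted p = 0.0181) and Tgfb1 by 0.81 (SE 0.234, limma adjusted p = 0.0328). Tgfb3 fell by 0.66 (SE 0.209, limma adjusted p = 0.0474), a call lost with the title string as a random block. Over 26 alternatives these calls were kept in 19 for Amotl1, 15 for Tgfb1 and 11 for Tgfb3. None of the 3 calls was left without DMSO replicate 2 or without DMSO replicate 3. There were 4 that rose and 0 that fell without BA+DMSO replicate 2, and 1 that rose and 8 that fell without BA+DMSO replicate 3. Ankrd1, a YAP target like Cyr61, had a difference of 0.23 (SE 0.542, limma adjusted p = 0.795) and groups that overlapped, and Amotl2 one of -0.56 (SE 0.198, limma adjusted p = 0.0693).

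Partners of TSG-6 in the hyaluronan coat formed a list of 18 with 14 tested, and 3 were called higher and 5 lower in the challenge, beside 9.65% and 10.8% of all probes, with a median of -0.17. Ambp and Ptx3 among the former and Hapln1 among the latter were tested because of the groups in which they were high, so the count is no support for a direction of the list. Has1, a hyaluronan synthase, rose by 3.21 (SE 0.846, limma adjusted p = 0.0231), from -3.80 to -2.83 in DMSO to -1.74 to 2.38 in BA+DMSO. The difference was 1.98 without BA+DMSO replicate 1, and the call was lost without DMSO replicate 2 or without DMSO replicate 3. Ambp, which encodes the light chain of inter-alpha-inhibitor, was not well above background in DMSO and was so on 2 of 3 arrays of BA+DMSO, a level at least 5.01-fold above DMSO. Ptx3, the pentraxin that TSG-6 ties to hyaluronan, was well above background on 1 of 3 DMSO and 2 of 3 BA+DMSO arrays, with groups that overlapped, from -5.12 to -3.48 and from -3.62 to 0.33. Among those that fell were Hyal1, a hyaluronidase, at -1.99 (SE 0.320, limma adjusted p = 0.00239), and Itih3 and Itih4, genes of the inter-alpha-inhibitor heavy chain family, at -1.94 (limma adjusted p = 0.00534) and -1.87 (limma adjusted p = 0.0122). Without DMSO replicate 2 or without DMSO replicate 3, 1 of this list was called higher and 3 lower. Mesothelial markers were called higher in the challenge with vehicle at 6 of 8. Upk1b and Lrrn4 among the 8 were tested because of BA+DMSO, where they were high, so the count is no support for a direction. The summed level of the list was 12.5 to 23.3 in DMSO and 21.2 to 31.3 for BA+DMSO. Without Krt18, the brightest, it was 0.633 to 3.62 and 7.18 to 16. In the challenge under rapamycin 0 of 8 mesothelial markers were called, with a median of 0.17 beside 2.59 in the challenge with vehicle. The part of these markers in the hyaluronan list was not tested.

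In the challenge under rapamycin, 6 of 20 relatives were called higher and 6 lower (median 0.05), as were 5 and 4 of 18 receptors (median 0.19), 2 and 6 of 23 genes of the TGF-beta and YAP list (median -0.49) and 4 and 7 of 14 of the hyaluronan list (median -0.62). Of all tested probes 41.7% were called there, and 18.9% were called higher. In the hyaluronan list Ambp and Ptx3 were tested only because of BA+rapamycin, where they were high. Hapln1 and Itih5 were tested because of the unchallenged groups, where they were high, so this count is no support for a direction of the list. Among its 9 genes with a probe well above background on all 12 arrays, 1 was called higher and 5 lower. The challenge under rapamycin shares no array with the challenge with vehicle, and the difference between them is the interaction.

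No gene of these 4 lists was called by limma for rapamycin under challenge, for rapamycin alone or for the interaction. At an unadjusted p under 0.05, rapamycin under challenge gave 5 of 20 relatives, 4 of 18 receptors, 2 of 23 genes of the TGF-beta and YAP list and 5 of 14 of the hyaluronan list, beside 20.1% of all probes. Without BA+DMSO replicate 2 the adjusted calls were 8 relatives, 4 receptors, 4 genes of the TGF-beta and YAP list and 2 of the hyaluronan list, beside the 39.5% of all probes given above, and 2 relatives, 1 receptor and 2 genes of the TGF-beta and YAP list were called for the interaction. Without BA+DMSO replicate 1, 3 of the hyaluronan list were called for rapamycin under challenge. Under each of 6 other settings of scaling, block or prior, 1 relative was called lower there, and array weights called 5 relatives, 1 receptor and 1 gene of the TGF-beta and YAP list for rapamycin alone, beside 5.44% of all probes.

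The genes most like each member were ranked by Pearson's r over the 12 arrays among 12885 genes with a tested probe, leaving out names of clones, transcripts and predicted genes, as a description, since the arrays fall into groups and share their scaling. Spp1 was most like Arpc1b, a subunit of the actin-branching complex (r = 0.98), then Hmga2-ps1 (r = 0.978) and Serinc2 (r = 0.977). Tnc was most like Apobec3 (r = 0.984), Thbs1 like Rps2 (r = 0.97), Thbs2 like Hint1 (r = 0.979) and Postn like Rpl36al (r = 0.966). Sparc was most like Col1a1, the main chain of type I collagen (r = 0.987). For the trio above, the nearest were Ptp4a1 for Ctgf (r = 0.944), Zfp280c for Cyr61 (r = 0.934) and Etv6 for Tnfaip6 (r = 0.982), and Fn1 was nearest to Baiap2l1 (r = 0.927).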

How the data were processed

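RNA of 12 mouse aortas was hybridised to 1-colour Agilent arrays. Per the file headers, Feature Extraction 10.7.1.1 was used (the submitters' processing notes name 9.5.1.1), probes are placed on mm9, and the processed signal is a background-subtracted intensity not normalized between arrays. The deposited matrix holds intensity that, from its values, was quantile normalized by the authors, on a linear scale and with a median of 4.092 in each column. Spots flagged as outliers were left out, spots of a probe were averaged on the log2 scale, and the 75th percentile of each array was subtracted. A probe was tested if at least 0.5 of its spots were well above background on all 3 arrays of 1 group, which left 27801 of 55675 probes. One limma 3.58.1 model (R 4.3.3, data.table version 1.17.8) with 4 group means was fitted to all arrays, and the procedure was tested on simulated data. A gene stands by its tested probe with the highest mean. Named genes are the members with every probe and, per list, at most the 3 called genes with the largest difference in a comparison. By likeness, the nearest 3 genes were named for Spp1 and the nearest 1 for each other member. Cd44, Itgb1, Ankrd1, Amotl2, Tnxb, the other list genes named beyond those 3, and the Tnc probe gap were chosen after their values were seen. Members, lists and motifs were chosen with earlier results of these data known. Replicates are single mice, numbered in order of deposition. The number of arrays limits the precision. Alternatives were other scalings, background correction, filters, blocks for slide or title string, array weights, the study's rule, and leaving out each array.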

Additional observations from a re-analysis of the deposited data

Results flagged for a closer look

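The rapamycin response of 2 members ran in opposite directions in unchallenged and challenged aortas, each rapamycin array set against the mean of its vehicle group. All 3 rapamycin arrays of Cyr61 were below the DMSO mean and all 3 BA+rapamycin arrays were above the BA+DMSO mean, with an interaction of 2.39 (limma adjusted p = 0.737). That BA+DMSO mean was lowered by replicate 2: BA+rapamycin replicate 3, at 4.22, lay below both other BA+DMSO arrays, at 4.84 and 4.53, and without replicate 2 the interaction was 1.66 (limma adjusted p = 0.119). Sparc showed the same pattern, with an interaction of 0.51 (limma adjusted p = 0.737), which was 0.00 under quantile normalization. The BA+DMSO mean of Sparc was lowered by replicate 3: BA+rapamycin replicate 1, at 10.38, lay below both other BA+DMSO arrays, and without replicate 3 the interaction was 0.25 (limma adjusted p = 1) and the difference of rapamycin under challenge 0.06. Neither interaction passed the test, so the 2 responses were not shown to differ.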

How the results depend on the processing

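The 50 member comparisons gave 1285 values over the alternative fits. Of these, 1251 kept their direction if called and their side of the threshold, 13 lost a call, 19 gained one and 2 reversed. Among the 1251, 78 uncalled differences changed sign. The 2 reversals were of Sparc in the challenge under rapamycin, at -0.03 with quantile normalization and -0.03 with the deposited matrix. As that matrix is itself quantile normalized, these are close to 1 alternative counted again. Members called in the challenge numbered 0 with the slide as a fixed block, when 0.054% of all probes were called and slide and challenge share nearly all their contrast, and 1 (Thbs1) with array weights (0.403%), whose estimate did not converge. Array weights gave 2 members (Thbs1 and Tnfaip6) for rapamycin alone (5.44%); the cause was not tested. The study's rule gave 2 (Spp1 and Tnc) for the challenge under rapamycin (5.14%), since it asks for over 4-fold, which leaves out Thbs1 (3.33-fold) and Sparc (2.10-fold). Leaving out each array in turn gave 3 to 5 members in the challenge, 0 to 3 for rapamycin under challenge, 0 to 0 for rapamycin alone, 4 to 6 in the challenge under rapamycin and 0 to 2 for the interaction, the highest counts for rapamycin under challenge and the interaction coming without BA+DMSO replicate 2. The share of all tested probes called in the challenge ran from 7.13% to 38% over these fits and, for rapamycin under challenge, from 0.0993% to 39.5%. With no filter on dim probes the median of all probes moved to 0.43 in the challenge and 0.85 under rapamycin. The interaction could not be fitted with only the 2 groups compared. Spp1 was not tested when all 12 arrays had to be well above background. No paired analysis was possible because the replicate numbers only follow the order of deposition; this concerns the numbers alone, and the strings in the titles were fitted as blocks. With the title string as a random block (correlation 0.496), 4 members were called in the challenge, 4 in the challenge under rapamycin and 0 in the other comparisons. There too BA+DMSO replicates 2 and 3, whose titles hold no such string, were each a level of their own. As a fixed block, chosen after seeing the data, the string leaves 2 residual degrees of freedom and 1 BA+DMSO array, so only differences are given. That of Tnc was 1.75 in the challenge with vehicle. In the challenge under rapamycin the differences were 2.81 for Tnc, 1.07 for Sparc and -1.58 for Thbs2. In simulated data for the challenge (27801 probes), 20.9% of changes of 1 on the log2 scale, 70.1% of changes of 2 and 86.4% of changes of 3 were recovered, so small differences of members could be missed at 3 arrays a group. The simulation gave every group the same spread, with independent noise, and changed 67, 67 and 66 probes. The real median SD was 0.502 in BA+DMSO and 0.155 in DMSO, and 20.5% of probes were called. These shares are therefore not the power of the real comparison.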
